A study of Mus musculus with 12 samples.

Results

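Leukocytes leave the blood by a chain of contacts with the vessel wall, and the 9 genes described here encode molecules on both sides of those contacts. They were chosen by symbol among the 49315 genes of the count tables: Sele, Selp, Vcam1, Icam1 and Icam2 for the vessel side, and Selplg, Itgal, Itgb2 and Itga4 for the leukocyte side. The rule takes them by name only, and all 9 passed the filter on low counts in each comparison. The gene models of the files are on GRCm38. Sele (ENSMUSG00000026582) spans chr1:164048234-164057677 and Selp (ENSMUSG00000026580) spans chr1:164115264-164150026. Both are on the plus strand. Vcam1 (ENSMUSG00000027962) spans chr3:116109949-116129688, Icam1 (ENSMUSG00000037405) spans chr9:21015985-21028817 and Icam2 (ENSMUSG00000001029) spans chr11:106377656-106388075. Selplg (ENSMUSG00000048163) spans chr5:113818536-113832644, Itgal (ENSMUSG00000030830) spans chr7:127296260-127335138, Itgb2 (ENSMUSG00000000290) spans chr10:77530252-77565708 and Itga4 (ENSMUSG00000027009) spans chr2:79255426-79333123.

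RNA was sequenced from 12 tumors grown from TRAMP-C2 cells, a prostate tumor line of 1 mouse of the TRAMP transgenic strain, injected under the skin of the right flank of male C57BL/6J mice aged 6 to 8 weeks. Tumors of about 200 mm3 were injected with HBSS (vehicle, 50 µl, 3 doses), cyto-IL-15 (10 µg in PBS rather than HBSS, 2 doses on days 0 and 4), ADU-S100 (50 µg, 3 doses on days 0, 2 and 4) or a combination of both agents at these doses, and were collected on day 6. ADU-S100 activates the sensor STING, and cyto-IL-15 is interleukin-15 modified to stay attached to cell membranes near the injection. Each group held 3 tumors: HBSS tumors 19, 22R and 22LL, cyto-IL-15 tumors 9R, 13 and 20LL, ADU-S100 tumors 17LL, 18R and 22LR, and combination tumors 20L, 22 and 28LL. All mice had an intact immune system and all tumors came from the same line, so neither naive tissue nor a second tumor model entered the comparisons.

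Total counts lay between 48772204 and 103700199 per tumor. The cyto-IL-15 tumor 13 and the combination tumor 28LL stood apart, with Pearson's r of log2 CPM of 0.957 to 0.980 with the other 10 tumors, which correlated at 0.986 to 0.997 with each other. Summed endothelial markers (18 genes, such as Pecam1 and Cdh5) were lowest in tumor 13 at 379 CPM and highest in 28LL at 1571 CPM, and summed pan-leukocyte markers (8 genes, such as Ptprc) were lowest in tumor 13 at 472 CPM and highest in 28LL at 3985 CPM. Skeletal muscle fiber markers (8 genes) summed to 9.56 to 12.1 CPM in the HBSS tumors, 10.3 to 769.6 CPM with cyto-IL-15, 178 to 1908 CPM with ADU-S100 and 59.9 to 4231 CPM with the combination, where 28LL was highest. Between ADU-S100 and HBSS all 8 were higher without overlap and 4 were called (Acta1, Ckm, Myh4 and Actn3), and the part of muscle in the member levels was not tested. Results that turn on either tumor are therefore given with and without it. Epithelial tumor markers (6 genes, such as Epcam and Krt8) summed to 8.5 to 276 CPM, low beside the fibroblast and matrix markers (8 genes, 13065 to 34757 CPM).

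Selectins on activated endothelium catch passing leukocytes by binding sugars on carriers such as PSGL-1, the product of Selplg, and the cells roll. Chemokines then switch on leukocyte integrins: Itgal and Itgb2 form LFA-1, which binds the ICAM proteins, and Itga4 pairs with Itgb1 to form VLA-4, which binds VCAM-1, or with Itgb7 to bind MAdCAM-1. Endothelial Sele, Vcam1 and Icam1 are known targets of NF-kappaB after tumor necrosis factor or interleukin-1, whereas Icam2 is made by resting endothelium. Vcam1 and Icam1 are also made by cells other than endothelium, and P-selectin is stored in platelets as well.

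Promoter sequence bears on the vessel side, where these genes answer cytokines, and 4 of the 9 genes (Sele, Selp, Icam1 and Itga4) had an entry in the RefSeq promoter table used here (GRCm38.p6). No entry was found for Vcam1, Icam2, Selplg, Itgal and Itgb2. The 3 vessel-side entries are shown. Sele, Selp and Icam1 were each highest in tumor 28LL, but so were Selplg, Itgal, Itgb2 and Itga4, so that trait does not set them apart. Each is the 250 bases before the RefSeq start, plus strand, at chr1:164047984-164048233 for Sele, chr1:164115014-164115263 for Selp and chr9:21015690-21015939 for Icam1, with capitals marking GGNNNTTCC (an NF-kappaB-type motif, either strand) and TATAAA.
Sele: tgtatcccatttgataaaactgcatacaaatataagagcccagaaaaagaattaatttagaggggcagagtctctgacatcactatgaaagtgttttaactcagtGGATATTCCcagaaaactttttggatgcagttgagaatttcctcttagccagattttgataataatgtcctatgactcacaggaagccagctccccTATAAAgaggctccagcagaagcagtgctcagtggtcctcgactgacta
Selp: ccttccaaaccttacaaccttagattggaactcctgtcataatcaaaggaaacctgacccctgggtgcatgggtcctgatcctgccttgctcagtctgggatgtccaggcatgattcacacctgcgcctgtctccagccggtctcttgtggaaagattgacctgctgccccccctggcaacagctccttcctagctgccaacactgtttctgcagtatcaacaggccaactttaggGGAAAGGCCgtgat
Icam1: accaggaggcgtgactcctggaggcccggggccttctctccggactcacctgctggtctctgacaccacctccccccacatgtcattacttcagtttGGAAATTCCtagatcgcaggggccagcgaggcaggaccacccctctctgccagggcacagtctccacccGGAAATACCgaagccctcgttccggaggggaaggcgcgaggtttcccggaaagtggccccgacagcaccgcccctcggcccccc
Sele held 1 match to GGNNNTTCC at bases -145 to -137 and TATAAA at -49 to -44, counted from the RefSeq start with -1 as the last base shown. The Icam1 gene model of the count files starts at 21015985, downstream of this RefSeq start. Icam1 held the first motif at -153 to -145, where GGAAATTCC matches on both strands, and on the minus strand at -84 to -76. Selp held it on the minus strand at -14 to -6, and the 250 bases before Itga4 (chr2:79255176-79255425) held neither motif. Of 32851 promoters of this length, 15.7% held GGNNNTTCC and 12.4% held TATAAA, so a match is a description of these letters and not of a bound site. The motifs were chosen with the sequences in view.

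Levels of different genes were set side by side as CPM per kb of gene model. Itgb2 was the most abundant member, with a median of 49.6 CPM per kb over the 12 tumors, followed by Vcam1 (29.8), Selplg (19.8), Icam1 (12.7), Itgal (10.8), Icam2 (5.80) and Itga4 (2.51). Both endothelial selectins were rare, at a median of 0.369 CPM per kb for Selp and 0.0954 for Sele. The 12-tumor ranges of every pair of neighbours in this order overlapped. Without 28LL, the highest Selp value (0.588 CPM per kb) was below the lowest Itga4 value (1.10).

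**Figure D1:**
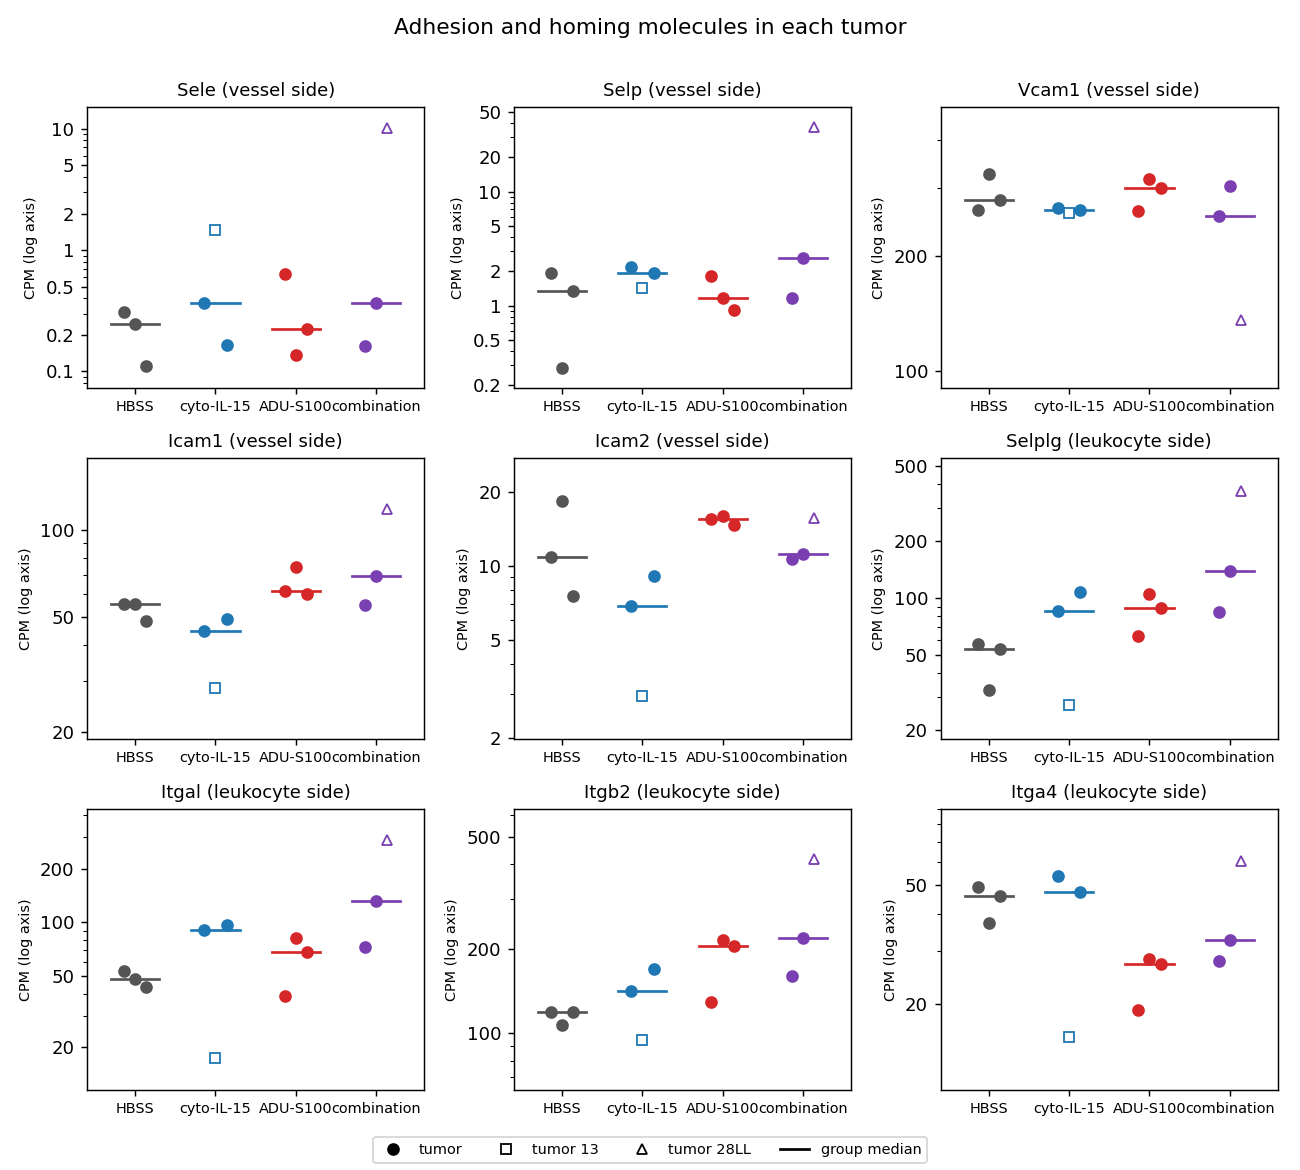
CPM of each of the 9 genes (log axis, its range differing between panels) in the 12 tumors by treatment group, with 3 tumors a group; bars are group medians and open symbols mark tumors 13 and 28LL. Both selectins are highest in 28LL, Vcam1 lies in a narrow band in the other 11 tumors, and all 3 ADU-S100 tumors lie below all 3 HBSS tumors for Itga4.

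Sele, which encodes the cytokine-induced E-selectin, rested on few reads in most tumors. It measured 0.311, 0.245 and 0.110 CPM in HBSS tumors 19, 22R and 22LL, which rests on 19, 18 and 10 counts. It measured 0.365, 1.47 and 0.167 CPM in cyto-IL-15 tumors 9R, 13 and 20LL, and 0.629, 0.136 and 0.224 CPM in ADU-S100 tumors 17LL, 18R and 22LR. In the combination group tumors 20L and 22 held 0.162 and 0.365 CPM, and 28LL held 10.1 CPM (730 counts). The 4 groups overlapped, and 28LL was 6.85 times as high as the next tumor, which was tumor 13.

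Selp encodes P-selectin, which endothelium and platelets hold in granules. It measured 1.92, 0.285 and 1.33 CPM in the HBSS tumors, 2.19, 1.43 and 1.95 CPM with cyto-IL-15, and 1.82, 1.17 and 0.918 CPM with ADU-S100, in the tumor order given above. The combination tumors held 1.16, 2.60 and 36.9 CPM. Again all groups overlapped, and 28LL was 14.2 times as high as the second highest tumor.

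The fitted differences between the combination and HBSS were large but rested on that tumor. They were 4.04 on the log2 scale for Sele (SE 1.62, edgeR adjusted p = 0.266) and 3.56 for Selp (SE 1.45, adjusted p = 0.269). Without 28LL they were 0.29 (adjusted p = 0.818) and 0.69 (adjusted p = 0.641). Across the other 11 tumors Selp lay between 0.285 and 2.60 CPM, a 9.09-fold range with the lowest value in HBSS tumor 22R and the highest in combination tumor 22. Neither selectin reached an adjusted p below 0.05 in any of the 9 comparisons made.

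Tumor 28LL was also highest for several cytokines that induce vessel adhesion molecules, named here after their values were seen. Il1b measured 79.99 CPM there and 3.96 to 8.18 CPM in the other 11 tumors, and Tnf measured 25.6 CPM against 1.82 to 10.8. The platelet chemokine Pf4 measured 119.96 CPM in 28LL and 13.7 to 122.3 CPM in the other 11 tumors. The 6 platelet markers summed to 131 CPM in 28LL and 134 CPM in 17LL, against 30.7 to 42.2 CPM in the HBSS tumors. Most of both sums was Pf4, at 119.96 CPM in 28LL and 122.3 CPM in 17LL, so the sums do not show a rise of the whole list. In 28LL Ppbp was also above the HBSS tumors, at 4.08 against 0.229 to 0.462 CPM. Itga2b (6.80 CPM) lay inside the HBSS range there, and Gp1ba (0.413 CPM) was below all of the other 11 tumors. Gp6 and Gp9, which are restricted to the platelet lineage, measured 0.0413 and 0.11 CPM in 28LL. They were as rare in the other 11 tumors, at 0 to 0.0962 and 0 to 0.164 CPM, so they do not separate the tumors. The part of these cells and cytokines in the selectin levels of 28LL was not tested.

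Vcam1, the endothelial ligand of VLA-4, was high and varied little. It measured 263, 326 and 279 CPM in HBSS tumors 19, 22R and 22LL and 266, 258 and 263 CPM in the cyto-IL-15 tumors. With ADU-S100 it measured 262, 317 and 300.4 CPM, and with the combination 254, 304 and 135 CPM. Apart from 28LL, which was lowest, all tumors fell between 254 and 326 CPM and the groups overlapped. The differences from HBSS were -0.12 (SE 0.13) for cyto-IL-15, 0.038 (SE 0.12) for ADU-S100 and -0.30 (SE 0.29) for the combination, with edgeR adjusted p from 0.591 to 0.899.

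The level of Vcam1 did not track the endothelial markers. In tumor 13, where these markers were lowest, Vcam1 measured 258 CPM, and in 28LL, where they were highest, it was at its lowest. Relative to the mean of the 18 endothelial markers, Vcam1 stood 4.02 log2 units higher in tumor 13 and 1.15 higher in 28LL, and 2.62 to 3.37 higher in the other 10 tumors. Vcam1 is thus placed on the vessel side by its known role only, since bulk RNA does not show which cells made it.

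Icam1, the inducible ligand of LFA-1, measured 55.6, 55.5 and 48.2 CPM in the HBSS tumors and 61.3, 74.5 and 60.2 CPM in the ADU-S100 tumors. All 3 ADU-S100 tumors were above all 3 HBSS tumors, as was the case for 15.8% of the 18911 genes tested. The difference was 0.32 (SE 0.12) with an edgeR adjusted p = 0.149. The combination tumors held 55.0, 69.1 and 118 CPM, with the lowest inside the HBSS range, a difference of 0.63 (SE 0.29, adjusted p = 0.301) that was 0.25 without 28LL. The cyto-IL-15 tumors held 44.9, 28.5 and 49.2 CPM, and tumor 13 was the lowest of all 12.

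Icam2, the constitutive ligand of LFA-1 on endothelium, measured 10.9, 18.4 and 7.52 CPM in the HBSS tumors, 6.88, 2.97 and 9.13 CPM with cyto-IL-15, 15.6, 16.0 and 14.7 CPM with ADU-S100, and 10.7, 11.2 and 15.6 CPM with the combination. Relative to the endothelial markers it lay between -2.20 and -1.26 on the log2 scale in all 12 tumors. That span was similar to the one of Icam1 (0.21 to 1.14) and narrower than those of Vcam1, Sele and Selp.

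Against cyto-IL-15, both ICAM genes were higher wherever ADU-S100 was given. ADU-S100 tumors differed from cyto-IL-15 tumors by 0.65 for Icam1 (SE 0.22) and 1.26 for Icam2 (SE 0.40) on the log2 scale, without overlap in either gene, and combination tumors differed by 1.00 for each (SE 0.36 and 0.46), again without overlap. Groups did not overlap in that direction for 9.30% of the genes tested in the first of these comparisons and for 5.89% in the second. The first comparison called 0.0855% of its genes and the second 0% (4.97% had an unadjusted p below 0.05), and no member in either, with edgeR adjusted p of 0.615 and 0.606 for ADU-S100 and 0.785 for both genes for the combination. Of the 18 endothelial markers, 13 were likewise higher without overlap in ADU-S100 than in cyto-IL-15 tumors and 6 in combination tumors. Their part in the Icam1 and Icam2 differences was not tested. Relative to the mean of these markers, Icam2 was higher without overlap with ADU-S100 (-1.41 to -1.26) than with cyto-IL-15 (-2.20 to -1.64). Icam1 overlapped (0.53 to 0.85 and 0.73 to 0.87), and both genes overlapped between the combination and cyto-IL-15. No share over all genes is given for these relative values. Without tumors 13 and 28LL the fitted differences were 0.49 and 0.96 for ADU-S100 (adjusted p = 0.196 and 0.0607) and 0.41 and 0.46 for the combination (adjusted p = 0.431 and 0.544). Both comparisons use the same cyto-IL-15 tumors.

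Selplg, the leukocyte ligand of the selectins, measured 57.4, 32.5 and 53.6 CPM in the HBSS tumors. It measured 84.8, 27.1 and 107.9 CPM with cyto-IL-15, 62.8, 105 and 88.9 CPM with ADU-S100 and 84.6, 139 and 365 CPM with the combination. All ADU-S100 and all combination tumors were above all HBSS tumors, while cyto-IL-15 overlapped HBSS through tumor 13. The difference was 0.85 for ADU-S100 (SE 0.25, edgeR adjusted p = 0.0902) and 2.07 for the combination (SE 0.57, adjusted p = 0.194).

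Itgal, the alpha chain of LFA-1, measured 53.5, 48.0 and 43.6 CPM in HBSS tumors 19, 22R and 22LL. With cyto-IL-15 it measured 91.1, 17.3 and 96.2 CPM, with ADU-S100 38.6, 81.5 and 68.1 CPM, and with the combination 73.3, 132 and 288 CPM. Only the combination tumors lay clear of the HBSS tumors, with a difference of 1.80 (SE 0.48, edgeR adjusted p = 0.193). Cyto-IL-15 differed from HBSS by 0.51 (SE 0.58, adjusted p = 0.901), and without tumor 13 by 0.97 (adjusted p = 0.0140), which is below the fold threshold of the call rule and leaves out the cyto-IL-15 tumor that lay lowest.

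Itgb2, the beta chain that Itgal and the myeloid integrins share, measured 119.6, 107 and 119 CPM in the HBSS tumors, 142, 94.6 and 169 CPM with cyto-IL-15, 129.7, 216 and 204 CPM with ADU-S100, and 160.5, 219 and 419 CPM with the combination. ADU-S100 and combination tumors lay above every HBSS tumor. The difference was 0.68 for ADU-S100 (SE 0.17, edgeR adjusted p = 0.0513) and 1.24 for the combination (SE 0.36, adjusted p = 0.198).

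Between ADU-S100 and HBSS, 3 of 9 members (Icam1, Selplg and Itgb2) were higher without overlap, beside 15.8% of 18911 genes. Between the combination and HBSS, 3 of 9 (Selplg, Itgal and Itgb2) were, beside 13.9% of 18565 genes, and edgeR called 0% of the genes (18.2% had an unadjusted p below 0.05). DESeq2 called Selplg (adjusted p = 0.00727), Itgal (0.00961) and Itgb2 (0.0378) in the same tumors. The share of all genes that DESeq2 called there is not given, so these calls do not set the members apart. Without 28LL the differences were 1.24 for Selplg, 1.11 for Itgal and 0.74 for Itgb2, with edgeR adjusted p of 0.105, 0.0686 and 0.0485. All 8 pan-leukocyte markers had a positive difference there, with a median of 1.66 on the log2 scale, and 7 of them did not overlap. In bulk tumor RNA, more leukocytes and more RNA per leukocyte cannot be told apart.

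Itga4, the alpha chain of VLA-4, was lower with ADU-S100. It measured 49.3, 37.3 and 46.1 CPM in HBSS tumors 19, 22R and 22LL, and 19.0, 28.2 and 27.2 CPM in ADU-S100 tumors 17LL, 18R and 22LR. With cyto-IL-15 it measured 53.7, 15.4 and 47.3 CPM, and with the combination 27.7, 32.7 and 60.1 CPM. Every ADU-S100 tumor was below every HBSS tumor, as for 15.4% of genes tested, and so were the combination tumors 20L and 22 but not 28LL, which was the highest of the 12.

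Itga4 fell by 0.82 on the log2 scale with ADU-S100 against HBSS (SE 0.17, edgeR adjusted p = 0.0267). It was the only member with an adjusted p below 0.05 in that comparison, where 6.19% of 18911 genes had one and 2.41% had one with a lower level. The fall did not reach the fold threshold of the call rule (adjusted p below 0.05 and more than 1 log2 unit), which 3.53% of genes met and no member did. The adjusted p rose to 0.0956 without HBSS tumor 19, 0.0918 without HBSS tumor 22LL and 0.0504 without ADU-S100 tumor 18R, and to 0.596 when all 12 tumors shared 1 estimate of the spread. DESeq2 gave an adjusted p of 0.000465.

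The combination differed from HBSS by -0.11 for Itga4 (SE 0.31, edgeR adjusted p = 0.858), a value that 28LL decided: without it the difference was -0.53. In the fit of all 12 tumors with a term for each agent, the ADU-S100 effect on Itga4 was -0.39 (SE 0.29, adjusted p = 0.484), and without tumors 13 and 28LL it was -0.79 (adjusted p = 0.00725). Against cyto-IL-15, ADU-S100 tumors differed by -0.67 (SE 0.44, adjusted p = 0.659), and without tumor 13 by -1.02 (adjusted p = 0.0491).

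**Figure D2:**
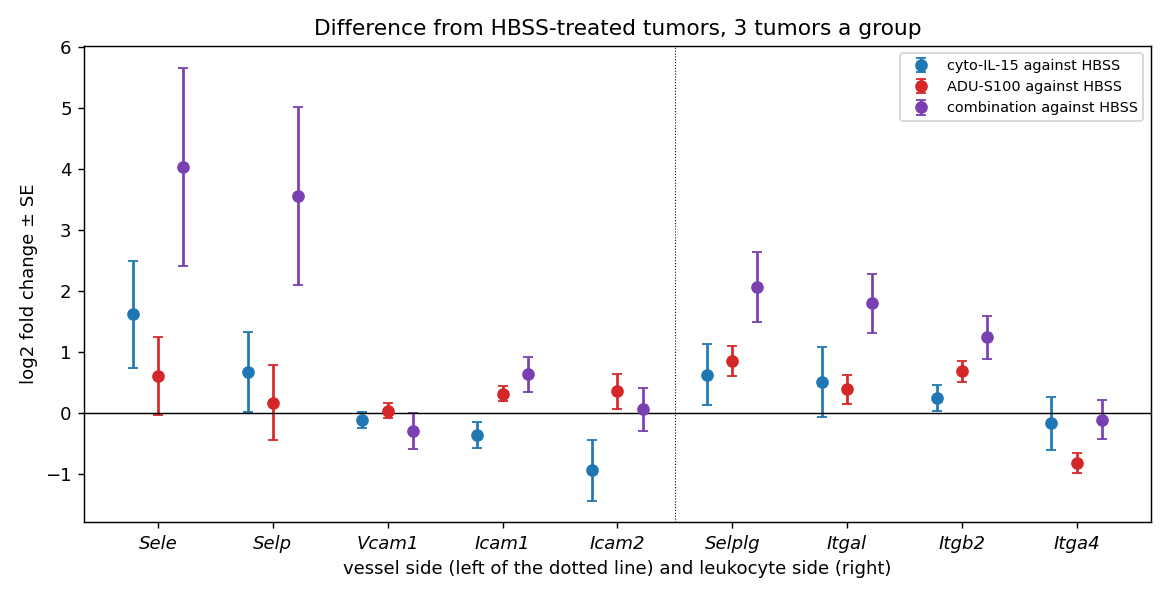
Log2 fold change of each member against HBSS for cyto-IL-15, ADU-S100 and the combination, with bars of 1 SE from edgeR fits of 3 against 3 tumors; the 3 comparisons share the HBSS tumors. The leukocyte-side members Selplg, Itgal and Itgb2 reach 2.07, 1.80 and 1.24 with the combination, Itga4 is at -0.82 with ADU-S100, and the bars of Sele and Selp are widest with the combination.

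Because leukocyte content differed between tumors, each leukocyte-side member was also set against the mean log2 CPM of the 8 pan-leukocyte markers of the same tumor. Itga4 lay at -0.77, -0.74 and -0.81 on this log2 scale in the HBSS tumors, a spread of under 0.1. It lay at -1.07, -1.47 and -1.59 with cyto-IL-15, at -2.18, -2.14 and -2.10 with ADU-S100, and at -1.93, -2.39 and -2.71 with the combination. All 6 tumors given ADU-S100 were below all 6 that were not, including 28LL and tumor 13. The cyto-IL-15 tumors in turn lay below the HBSS tumors, for which no share over all genes is given.

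That separation of 6 from 6 tumors in the lower direction occurred for 1.63% of 20132 genes set against the same markers. For ADU-S100 against HBSS alone it occurred for 47.3%, and for the combination against HBSS for 81.4%, since the markers themselves were higher there, so the separation from HBSS alone does not set Itga4 apart. These values are a description with no test.

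Selplg lay at -0.94 to -0.55 on this scale in the HBSS tumors, -0.48 to -0.25 with ADU-S100 and -0.34 to -0.12 with the combination. With cyto-IL-15 it lay at -0.68 to -0.41, overlapping HBSS and ADU-S100. It was above HBSS without overlap with ADU-S100 and with the combination, which held for 2.23% and 1.24% of genes in that direction. Itgal lay at -0.88 to -0.39 in the HBSS tumors, -1.18 to -0.62 with ADU-S100 and -0.55 to -0.39 with the combination, overlapping throughout. Itgb2 lay between 0.083 and 1.11 in the 12 tumors and no group separated from HBSS.

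**Figure D3:**
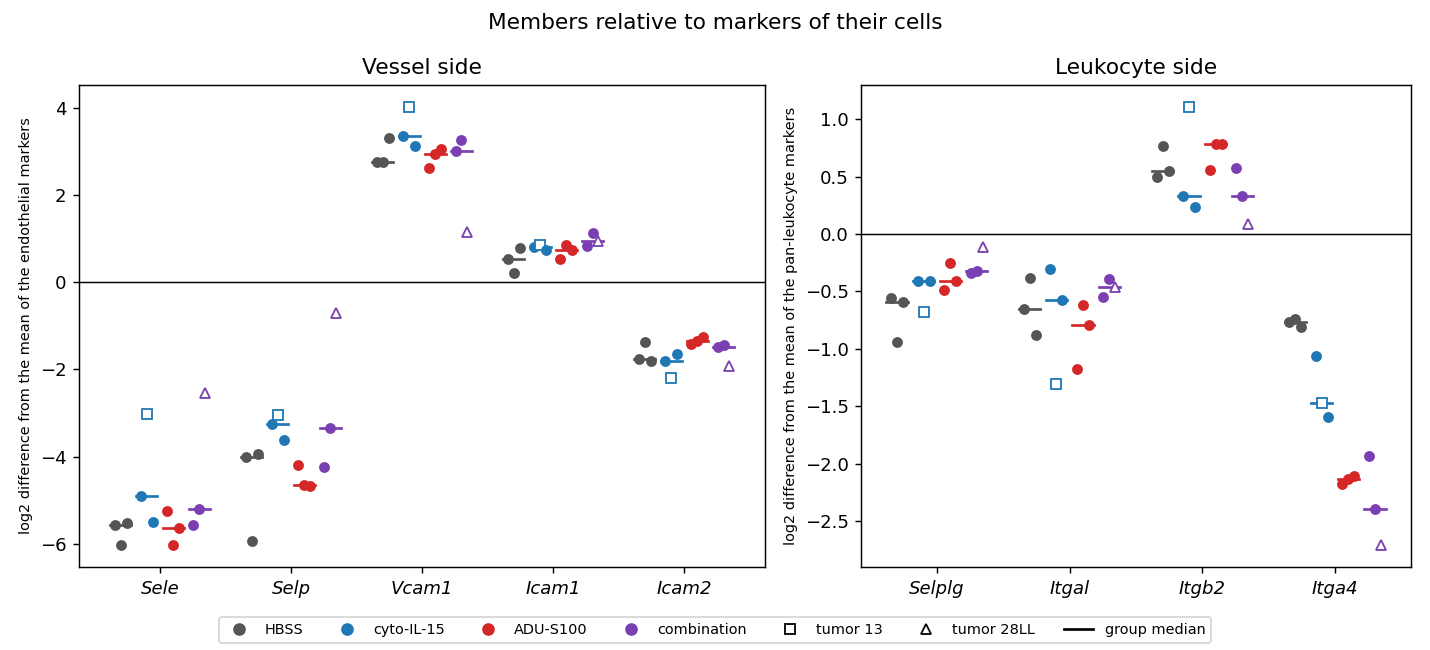
Vessel-side members as the log2 difference from the mean of 18 endothelial markers (left) and leukocyte-side members as the log2 difference from the mean of 8 pan-leukocyte markers (right), 1 point a tumor, bars at group medians. The HBSS points of Itga4 sit near -0.77, those of ADU-S100 near -2.14, and the selectin points of 28LL lie far above the other combination tumors.

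Ratios of Itga4 to other single genes within a tumor, both as CPM per kb, placed both groups given ADU-S100 lowest by their medians. Itga4 over Ptprc, which encodes the leukocyte surface protein CD45, was 0.446, 0.391 and 0.426 in the HBSS tumors, 0.312, 0.303 and 0.246 with cyto-IL-15, 0.203, 0.178 and 0.175 with ADU-S100 and 0.223, 0.144 and 0.101 with the combination. Every tumor given ADU-S100 was below every tumor that was not. Ptprc is among the pan-leukocyte markers used above, so this ratio partly repeats that result, and no share over all genes is given for it. Between the combination and HBSS, Ptprc differed by 1.62 (SE 0.55) on the log2 scale and Itga4 by -0.11 (SE 0.31). Itga4 over Itgb2 ranged from 0.0760 to 0.0900 in the HBSS tumors, 0.0356 to 0.0825 with cyto-IL-15, 0.0285 to 0.0320 with ADU-S100 and 0.0313 to 0.0377 with the combination, where the lowest cyto-IL-15 value (tumor 13) overlapped the combination. The balance between the transcripts of the VLA-4 and LFA-1 alpha chains, Itga4 over Itgal, ranged from 0.366 to 0.496 in the HBSS tumors. It ranged from 0.0981 to 0.178 in the combination tumors. The cyto-IL-15 range (0.23125 to 0.418) and the ADU-S100 range (0.162 to 0.23140) overlapped.

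**Figure D4:**
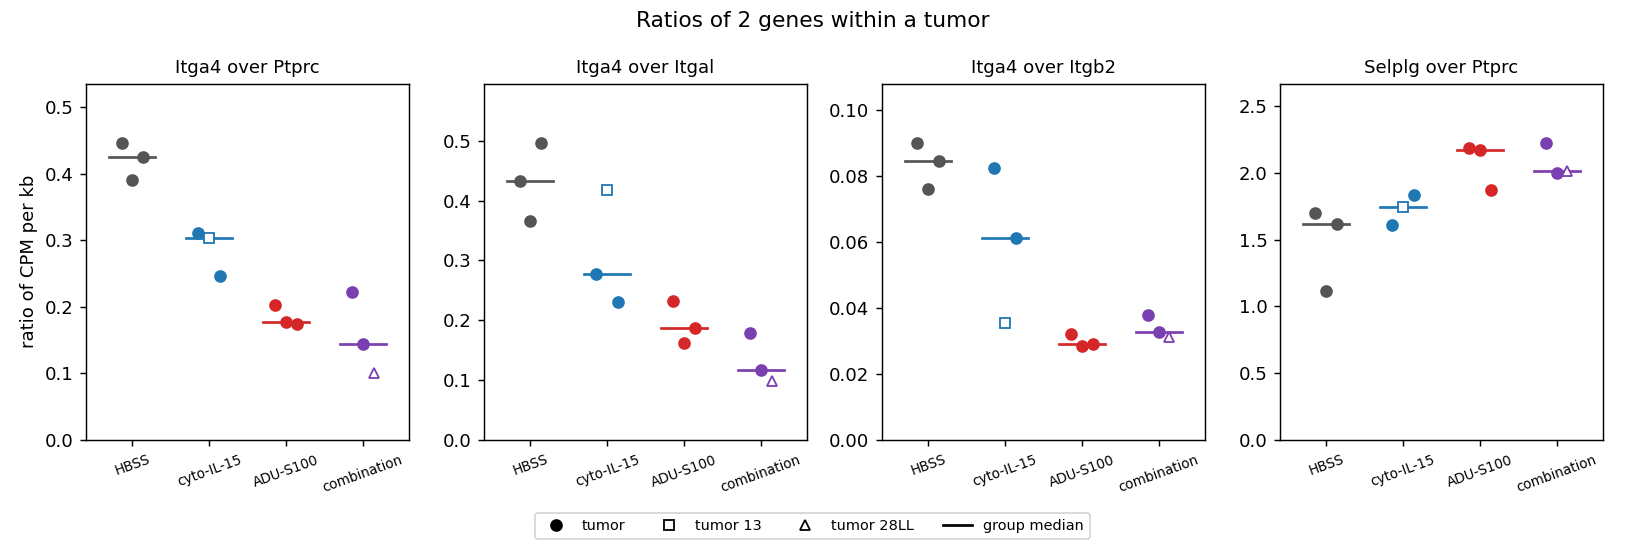
Ratios of CPM per kb of Itga4 to Ptprc, Itgal and Itgb2 and of Selplg to Ptprc in each tumor (linear axes from 0), with group medians as bars. Itga4 over Ptprc was 0.391 to 0.446 in HBSS tumors and 0.101 to 0.223 in the 6 tumors given ADU-S100, while Selplg over Ptprc was 1.11 to 1.70 and 1.87 to 2.22.

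Vcam1 over Itga4, ligand over receptor chain in CPM per kb, was 8.39 to 13.7 in the HBSS tumors and 17.4 to 21.7 in the ADU-S100 tumors without overlap. The combination tumors 20L and 22 held 14.4 and 14.7, and 28LL held 3.55. The cyto-IL-15 tumors 9R and 20LL held 7.80 and 8.75. Tumor 13, also given cyto-IL-15 alone, held 26.4, the highest ratio of any tumor, so a high ratio was not confined to tumors given ADU-S100. No share over other gene pairs is given for this ratio. The beta chains that pair with Itga4 did not pass the test: Itgb1 differed by -0.19 (SE 0.14, edgeR adjusted p = 0.434) and Itgb7 by 0.28 (SE 0.29, adjusted p = 0.594) between ADU-S100 and HBSS.

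Markers of leukocyte types moved beside the fall of Itga4. All 6 NK cell markers were called higher with ADU-S100 than with HBSS, their sum going from 10.997 to 17.8 CPM up to 49.8 to 57.8 CPM. So were 4 of 7 tested neutrophil markers and 1 of 8 T cell markers (Lck), beside 3.53% of all genes called in either direction. The neutrophil sums overlapped, at 703 to 787 CPM and 662 to 816 CPM, and Csf3r (-0.27) and Mmp9 (-0.063) did not rise. Of 6 B cell markers 1 was called lower (Cd79b, log2 difference -1.29, edgeR adjusted p = 0.0254) and 4 were lower without overlap, their sum going from 11.6 to 13.9 CPM in the HBSS tumors to 4.5 to 8.1 CPM. Of 8 macrophage markers, Mrc1 was called lower (-1.53, adjusted p = 0.0156) and 4 were lower without overlap, while Cd68 rose without overlap (0.64, adjusted p = 0.0327), with sums of 2383 to 3199 CPM and 1773 to 2586 CPM that overlapped. Their part in the level of Itga4 was not tested.

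The wider adhesion cascade was taken as 39 genes of capture, integrin partners, integrin activation and transmigration, of which 36 could be tested. Between ADU-S100 and HBSS 2 were called higher and 1 lower, and the median log2 difference was 0.16 against 0.029 for all genes. Skap1, an adaptor in integrin activation of T cells, rose by 1.08 (SE 0.20, edgeR adjusted p = 0.0186). Itgae, the alpha chain of the integrin that binds E-cadherin and marks tissue-resident lymphocytes, fell by 1.82 (SE 0.34, adjusted p = 0.0194). Itgae measured 5.42, 2.47 and 4.73 CPM in the HBSS tumors and 1.29, 1.32 and 0.918 CPM with ADU-S100.

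In the same comparison 2 of 6 tested cytokines that induce vessel adhesion molecules were called higher, Ifng by 2.34 (SE 0.30, edgeR adjusted p = 0.00414) and Tnf by 1.42 (SE 0.25, adjusted p = 0.0151). Tnf measured 3.72, 2.31 and 3.95 CPM in the HBSS tumors and 9.97, 8.21 and 8.22 CPM with ADU-S100, so the groups were well apart. Il1b measured 7.14, 8.18 and 4.93 CPM and 7.59, 4.62 and 7.35 CPM, which overlapped. Of 18 endothelial markers none was called and 1 had an adjusted p below 0.05 (Egfl7, 0.95, adjusted p = 0.0129), with a median of 0.19.

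In the other comparisons with HBSS no gene of the wider cascade was called. Their median log2 difference was 0.37 for the combination and 0.12 for cyto-IL-15. With the combination 8 genes were higher and 1 lower without overlap, where 13.9% of all genes tested were higher without overlap. Cyto-IL-15 changed no member by the call rule, and edgeR called 0% of 18594 genes (3.80% had an unadjusted p below 0.05 and DESeq2 called no member either). All 18 endothelial markers had a negative difference in that comparison, with a median of -0.61.

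Of the remaining tests, the combination against ADU-S100 called 0% of genes in edgeR (4.29% had an unadjusted p below 0.05) and no member. Itgal differed by 1.40 there (SE 0.52, edgeR adjusted p = 0.884), and by 0.72 without 28LL. In the fit of all 12 tumors, the ADU-S100 effect was 0.83 for Itgb2 (SE 0.23, adjusted p = 0.0989), 0.65 for Icam1 (SE 0.19, adjusted p = 0.107) and 1.14 for Selplg (SE 0.39, adjusted p = 0.149), where 0.82% of 20132 genes were called. Without tumors 13 and 28LL these were 0.48, 0.35 and 0.53, with adjusted p of 0.0742, 0.0583 and 0.171. The cyto-IL-15 effect in that fit was 0.91 for Selplg (SE 0.39) and 0.95 for Itgal (SE 0.42), with an adjusted p of 0.652 for both, and it called 0% of genes (7.55% had an unadjusted p below 0.05). The interaction of the agents was tested for each member, and all had an adjusted p of 1.00, with 0% of genes called and 2.29% at an unadjusted p below 0.05.

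The genes most like each member over the 12 tumors were taken as the 3 with the highest Pearson's r of log2 CPM among 14117 genes, given as a description. For Selplg they included Traf3ip3 (r = 0.99) and Rgs14, for Itgal Sash3 (0.99), Ptprc and Adgrg5, and for Itgb2 Parvg (0.98), Scimp and Runx3. For Itga4 they were Rassf4 (0.98), Tbc1d8 and Rel, and these lay at 0.95 to 0.98 without tumors 13 and 28LL. For Icam1 they were Ccrl2 (0.96), Trafd1 and Tor3a, for Icam2 Depp1 (0.96), Osgin1 and Myct1, and for Vcam1 Dlg3 (0.95), L3hypdh and Arhgef25, whose r was 0.56 to 0.64 without the 2 tumors. For Selp they were Tha1 (0.98), Ehd3 and Pim2, and for Sele Mcpt8 (0.97), Tacc2 and Gm15675. The r of Mcpt8 with Sele was -0.039 without tumors 13 and 28LL.

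Among the members themselves, Selplg, Itgal and Itgb2 varied together, with r of 0.90 to 0.96 over the 12 tumors and 0.76 to 0.90 over the 10 without 13 and 28LL. Itga4 correlated with these 3 at 0.36 to 0.66 over 12 tumors and at -0.33 to 0.21 over 10. Icam1 and Icam2 had an r of 0.80 over 12 and 0.71 over 10, whereas Sele and Selp went from 0.88 to 0.38. The tumors share treatment groups and leukocyte content, so these values describe the 12 libraries only.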

How the data were processed

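RNA of 12 TRAMP-C2 tumors was sequenced, 1 tumor for each library. The authors deposited raw read counts per Ensembl gene as whole numbers, made according to the submitters' processing notes with bcl2fastq 2.20, Trimmomatic 0.36, STAR 2.5.2b and featureCounts of Subread 1.5.2 on GRCm38. How strand and multi-mapped reads were handled, and which annotation release was used, are not given in the sources used here. Symbols were found for 48970 of 49315 gene identifiers.

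Depth was 48772204 to 103700199 counts per tumor. Levels are CPM with TMM factors over the 12 tumors, and 0.5 CPM was added before log2. Level differences between genes use CPM per kb of the gene length in the files. Comparisons were fitted on their own 6 tumors with edgeR 4.0.16 in R 4.3.3 (filterByExpr with a minimum count of 10 and total of 15, TMM, robust quasi-likelihood F test, Benjamini-Hochberg adjustment over all genes tested). The effects of each agent and their interaction were fitted on all 12 tumors. A gene was called at an adjusted p below 0.05 with a log2 fold change beyond 1 in either direction. The code was tested on simulated data. Labels give separate tumors for each group, with 3 tumors a group, and the comparisons share groups.

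The members and the gene lists were chosen with earlier results of these data known. The text names all 9 members, up to 4 called genes of each other list by the smallest p and the 3 genes most like each member among genes of mean 1 CPM or more, and any other gene named was chosen after its values were seen. A few genes that this rule would name are not reported here. Alternatives were DESeq2 1.42.0, RLE size factors, library totals, no filter, no fold threshold, 1 fit of all tumors, leaving out tumors 13 and 28LL, each tumor in turn and other pseudocounts. Promoters were searched with Python 3.11.15.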

Additional observations from a re-analysis of the deposited data

How the results depend on the processing

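The number of members called was 0 in each of the 9 comparisons. With no fold threshold it became 1 for ADU-S100 against HBSS (Itga4), beside 6.19% of 18911 genes. It became 3 for the combination against HBSS with DESeq2 and 1 for ADU-S100 against cyto-IL-15 without tumors 13 and 28LL (Itga4). Leaving out each tumor in turn gave 0 to 1 for ADU-S100 against cyto-IL-15. No share of all genes called is given for DESeq2 or for the fits without tumors. Where tumor 28LL or 13 was left out, the cause of a changed value is the loss of that sample, and elsewhere the cause was not tested. No paired analysis was possible because the labels name tumors and give no replicate numbers, so that replicates 1 to 3 are names in the order of deposit. Some tumor names share a number across groups (22 and 20), and the labels do not say what it marks.

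Without tumors 13 and 28LL the log2 difference changed sign for Itga4 in cyto-IL-15 against HBSS (0.21) and Icam2 in the combination against HBSS (-0.14). It did so in ADU-S100 against cyto-IL-15 for Sele (0.34) and Selplg (-0.16), in the combination against cyto-IL-15 for Selp (-0.13), Vcam1 (0.088) and Itga4 (-0.73), and in the combination against ADU-S100 for Sele (-0.31) and Icam1 (-0.069). In the fit of all tumors it did so for Vcam1 in the ADU-S100 effect (0.053), Sele in the cyto-IL-15 effect (-0.023) and, in the interaction, Sele (-0.58), Selp (-0.29), Vcam1 (0.058), Selplg (-0.62), Itgal (-0.24) and Itgb2 (-0.38).

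Leaving out 1 tumor at a time turned the sign for these ranges. Against HBSS they were Sele -0.29 to 1.00, Selp -0.32 to 0.70 and Vcam1 -0.026 to 0.11 for ADU-S100, Icam2 -0.21 to 0.45 and Itga4 -0.53 to 0.084 for the combination, and Itga4 -0.49 to 0.21 for cyto-IL-15. For ADU-S100 against cyto-IL-15 they were Sele -1.91 to 0.34, Selplg -0.16 to 0.58 and Itgal -0.57 to 0.18, and for the combination against cyto-IL-15 Sele -1.36 to 3.73, Vcam1 -0.42 to 0.084 and Itga4 -0.36 to 0.38. For the combination against ADU-S100 they were Sele -0.31 to 4.30 and Icam1 -0.069 to 0.51. In the fit of all tumors they were Sele -0.38 to 2.17 and Vcam1 -0.22 to 0.063 for the ADU-S100 effect, Icam1 -0.22 to 0.082 for the cyto-IL-15 effect, and in the interaction Sele -1.95 to 3.19, Selp -0.15 to 3.26, Vcam1 -0.45 to 0.052, Selplg -0.24 to 0.98 and Itgb2 -0.19 to 0.58. Itga4 in ADU-S100 against HBSS stayed between -0.95 and -0.69.

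With 0.1 or 1 CPM added before log2, the mean level relative to the endothelial markers became -6.90 or -4.97 for Sele in HBSS, -6.69 or -4.96 for Sele in ADU-S100, and -4.87 or -4.17 for Selp in ADU-S100. These selectin counts are low, and 3 tumors a group limit every test here.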
